A study of Homo sapiens with 8 samples.

Results

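The regions described here are H3K4me1 peaks that both genotypes of the MDA-MB-231 breast cancer line carry far from any protein-coding gene. They were taken from the control list as peaks on chromosomes 1 to 22 and X, shorter than 10000 bases, that overlapped an ARID1A knockout peak by at least 1 base and whose midpoint lay more than 50000 bases from every protein-coding record of RefSeq GRCh38. The rule found 9253 such peaks, called far shared peaks below. They were 15.96% (95% exact interval 15.7 to 16.3) of the 57967 shared control peaks under the length limit, and the control list held 82994 peaks on these chromosomes. The rule used the position and length of the control peak and its overlap with the knockout list, so numbers and shares of shared peaks describe the choice and test nothing. A further 133 far shared peaks were left out by the length limit, which acts on the control peak alone.

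MDA-MB-231 is a widely used cell line from a triple-negative breast tumour, a type without oestrogen receptor, progesterone receptor or HER2 amplification. ARID1A had been knocked out in 1 set of cells, which was set against control cells of the same line. ARID1A belongs to the BAF form of SWI/SNF, a complex that slides and evicts nucleosomes. The sources used here do not give how the knockout was made or whether the cells were 1 clone. Each genotype had 2 immunoprecipitated and 2 input samples, and the authors deposited 1 peak list per genotype, so there was no spread between replicates and no test of a difference. The labels and titles name H3K4me1 while 1 protocol sentence names H3K4me3 for the antibody, and H3K4me1 is used throughout. The knockout list held 73600 peaks on these chromosomes. Depth is unknown because no read totals were used. A peak list cannot show a deletion: the ARID1A record with 5000 bases on either side held 9 knockout peaks over 39191 bases and 8 control peaks over 44673 bases. Peaks were present in both lists at all 5 mesenchymal markers (VIM, AXL, CAV1, EGFR and CD44) and also at all 5 luminal markers (ESR1, GATA3, FOXA1, KRT19 and TFF1), so the presence of a peak did not separate them.

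Monomethylation of lysine 4 on histone H3 is laid down mainly by the KMT2C and KMT2D methyltransferases and marks enhancers, both active and primed, as well as the flanks of active promoters. Many enhancers lie in gene deserts, long stretches without protein-coding genes that often border developmental transcription factor genes, and act on a gene at a distance. Such stretches also hold long non-coding RNA (lncRNA) genes and microRNA genes, some of whose promoters overlap enhancer chromatin. SWI/SNF complexes with ARID1A open chromatin at enhancers, often together with AP-1, the JUN and FOS family of transcription factors.

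The sequences shown first are those of the microRNAs whose hairpins lay inside a far shared peak and which belong to a list of carcinoma-related microRNAs, since they are the best known non-coding products of these regions. MIR221 and MIR222 lie together on chromosome X and MIR30C2 on chromosome 6. Mature sequences are those of RefSeq GRCh38.p14, 5′ to 3′, with the seed (bases 2 to 8) in capitals.
miR-221-3p, chrX:45746180-45746202, minus strand: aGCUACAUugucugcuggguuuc
miR-222-3p, chrX:45747036-45747056, minus strand: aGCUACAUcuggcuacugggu
miR-30c-5p, chr6:71377003-71377025, minus strand: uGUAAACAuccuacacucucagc
The first pair share the seed GCUACAU, and the tumour suppressor mRNA CDKN1B is a known target of both. The miR-30c seed is GUAAACA.

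The second set are promoters of lncRNA genes that start inside a far shared peak and carry the AP-1 letters TGAGTCA or its reverse complement TGACTCA, shown because these letters recur in such promoters. The 3 shown belong to the starts with these letters whose control peak had the highest −log10 q on the chromosomes from which sequence is shown. Each is RefSeq GRCh38.p14 sequence, 250 bases before to 50 after the annotated start, 5′ to 3′ on the gene's strand, with the AP-1 letters in capitals.
LINC00460, chr13:106376314-106376613, plus strand: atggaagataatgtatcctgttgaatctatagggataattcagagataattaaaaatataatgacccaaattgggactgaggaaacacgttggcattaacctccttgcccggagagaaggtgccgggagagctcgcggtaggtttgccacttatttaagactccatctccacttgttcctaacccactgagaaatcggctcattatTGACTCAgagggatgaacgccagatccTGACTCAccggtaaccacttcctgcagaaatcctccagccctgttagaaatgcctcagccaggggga
LOC124903939, chr17:16866474-16866773, plus strand: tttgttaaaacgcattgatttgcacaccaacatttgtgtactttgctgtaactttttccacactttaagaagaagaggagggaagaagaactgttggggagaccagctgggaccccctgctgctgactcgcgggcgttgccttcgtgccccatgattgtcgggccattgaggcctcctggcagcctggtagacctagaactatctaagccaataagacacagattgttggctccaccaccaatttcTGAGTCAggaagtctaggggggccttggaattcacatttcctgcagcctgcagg
TGILR, chr6:3911953-3912252, minus strand: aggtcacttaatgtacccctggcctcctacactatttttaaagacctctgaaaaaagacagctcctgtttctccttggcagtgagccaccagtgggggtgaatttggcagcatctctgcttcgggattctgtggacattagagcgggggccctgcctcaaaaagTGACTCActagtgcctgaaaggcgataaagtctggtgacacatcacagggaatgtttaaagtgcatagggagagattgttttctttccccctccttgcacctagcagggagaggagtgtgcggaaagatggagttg
In LINC00460, a lncRNA raised in several carcinomas, the letters begin at positions -44 and -17 relative to the start. They begin at -4 in LOC124903939 and at -86 in TGILR.

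Each far shared peak was paired with the knockout peak that shared most bases with it, giving 8903 distinct knockout peaks. Of the 9253 pairs, 8472 were 1-to-1. The paired knockout peaks covered 21.2 Mb and the far shared peaks 18.96 Mb, of which 82.2% also lay in a knockout peak. The median knockout width was 1832 bases, against 1582 bases in control, with quartiles of 1140 and 3144 bases in the knockout and 989 and 2570 bases in control. At the 48714 other shared peaks the medians were 2020 bases in the knockout and 1782 bases in control. Among these, peaks outside but within 50000 bases of a coding record had 1756 bases in the knockout and 1597 bases in control.

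The median width ratio, knockout over control, was 1.09 at far shared peaks and 1.03 at other shared peaks. The knockout peak was at least 1.5 times as wide at 28.5% of far shared peaks, where 26.6% of all shared pairs were, and at most 1/1.5 as wide at 15.5%, where 18.2% of all were. In 1-to-1 pairs 23.2% were wider and 15.98% narrower, where 17.9% and 19.1% of all 1-to-1 shared pairs were, and the median width ratio was 1.06 in far 1-to-1 pairs and 0.978 in other 1-to-1 pairs. The 2 lists differ in how they were called: the shortest peak was 361 bases in the knockout and 312 bases in control, and neighbouring peaks lay at least 1446 bases apart in the knockout and 1250 bases in control, start minus end. With the larger merging distance and shortest peak given to both lists, the share of wider far pairs was 25.8% and that of narrower ones 16.4% (22.4% and 19.9% of all shared pairs). Among pairs with a −log10 q of at least 5 in both lists 17.0% of far pairs were wider and 7.09% narrower (18.3% and 11.1% of all). Among pairs with fold of at least 4 the shares were 14.6% and 6.38% (14.6% and 9.01% of all), and with a reciprocal overlap of 50% they were 12.004% and 8.59% (10.04% and 10.2% of all).

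Pileup, the number of stacked fragments averaged over a peak, had a median of 17.1 in the knockout and 14.0 in control at far shared peaks, and of 18.7 in the knockout and 15.4 in control at the other shared peaks. In bulk samples, more cells with the mark and more mark per cell cannot be told apart. The pileup ratio was divided by 1.19, its median over all shared pairs, and is called the relative pileup ratio below. Its median was 1.02 at far shared peaks and 0.997 at the others. It was at least 1.5 at 10.2% of far shared peaks (8.38% of all shared pairs) and at most 1/1.5 at 7.82% (7.95% of all). Without the division the shares were 23.4% and 2.56% (20.2% and 2.69% of all). At 2-fold, 18.9% of far shared pairs were wider and 8.19% narrower in the knockout (18.2% and 9.73% of all shared pairs), and 2.02% had higher and 1.22% lower relative pileup (1.4% and 1.26% of all). Among pairs with −log10 q of at least 5 in both lists the pileup shares were 5.103% and 2.45% (3.74% and 3.72% of all), and with fold of at least 4 they were 4.92% and 2.73% (3.96% and 3.75% of all). The distributions of both ratios in far and other shared pairs lay nearly on each other.

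**Figure D1:**
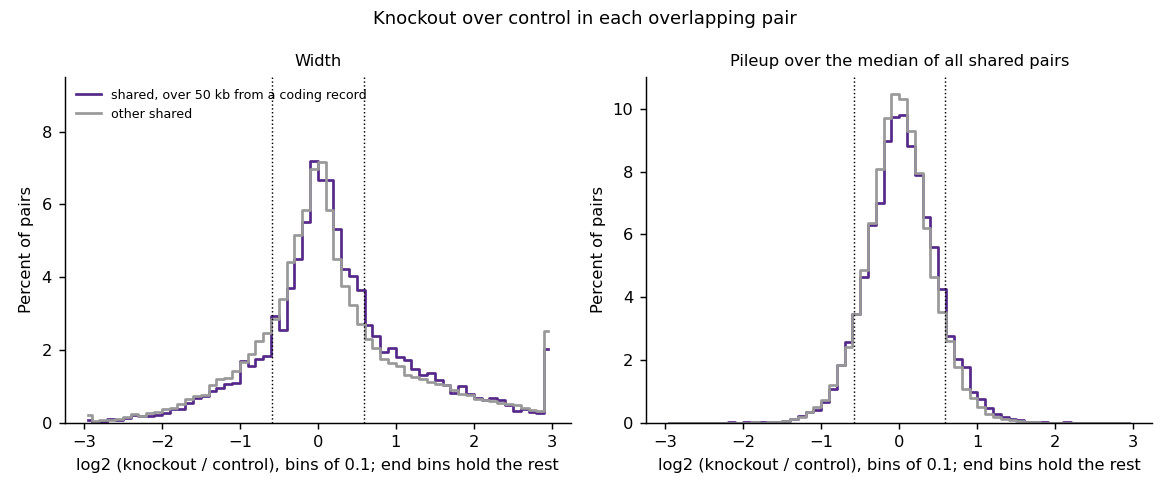
Log2 of knockout over control width (left) and relative pileup (right) in each overlapping pair, as percent of pairs per bin, for far shared pairs (purple) and other shared pairs (grey). Dotted lines mark 1.5-fold, and the far pairs have a median width ratio of 1.09 and a median relative pileup ratio of 1.02.

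Distance from the nearest coding record had a median of 146890 bases, with quartiles of 83967 and 308316 bases. Pileup was lower in each farther band in both lists, and width was lowest beyond 500 kb. Between 50 and 100 kb, 3077 far shared peaks had a median width of 1838 bases in the knockout and 1672 bases in control, and a median pileup of 18.0 in the knockout and 15.1 in control. Beyond 500 kb, 1296 peaks had 1643 bases in the knockout and 1335 bases in control, with pileups of 14.5 in the knockout and 11.7 in control. The median width ratio was 1.05 at 50 to 100 kb, 1.09 at 100 to 250 kb, 1.13 at 250 to 500 kb and 1.17 beyond 500 kb. The share of wider pairs in the same 4 bands was 24.8%, 28.7%, 30.5% and 34.5%. The median relative pileup ratio stayed between 0.987 and 1.06. Sharing itself thinned with distance: 73.0% of knockout peaks and 66.0% of control peaks at 50 to 100 kb overlapped the other list, against 55.1% of knockout peaks and 53.0% of control peaks beyond 500 kb. Just inside the limit, at 50 to 55 kb, 424 peaks had median widths of 1749 bases in the knockout and 1605 bases in control, and pileups of 17.0 in the knockout and 15.2 in control. Just outside it, at 45 to 50 kb, 476 peaks had widths of 1760 bases in the knockout and 1730 bases in control, and pileups of 17.8 in the knockout and 15.8 in control.

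Chromosomes differed more in pileup than distance bands did. On chromosome 13 the 502 pairs had a median pileup of 18.7 in the knockout and 11.9 in control, a relative ratio of 1.34, and 161 of them (32.1%) reached 1.5 while 2 fell to 1/1.5 or less. On chromosome 3 the 639 pairs had 16.2 in the knockout and 15.9 in control, a relative ratio of 0.857, with 30 pairs at 1.5 or more and 133 (20.8%) at 1/1.5 or less. Chromosome 10 had a relative ratio of 1.14 over 340 pairs. The input background implied by each peak's own pileup and fold moved the same way: knockout over control, divided by its median over all shared pairs of 1.24, it was 1.41 on chromosome 13, 0.793 on chromosome 3 and 1.16 on chromosome 10. Over the 23 chromosomes the log2 of the 2 ratios had Pearson's r = 0.936, a description in which each background value is itself computed from the pileup. Other shared peaks had a relative pileup ratio of 1.33 on chromosome 13 and 0.888 on chromosome 3, but 1.02 on chromosome 10, where their background ratio was also 1.02. The part of the background in these pileup ratios was not tested.

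**Figure D2:**
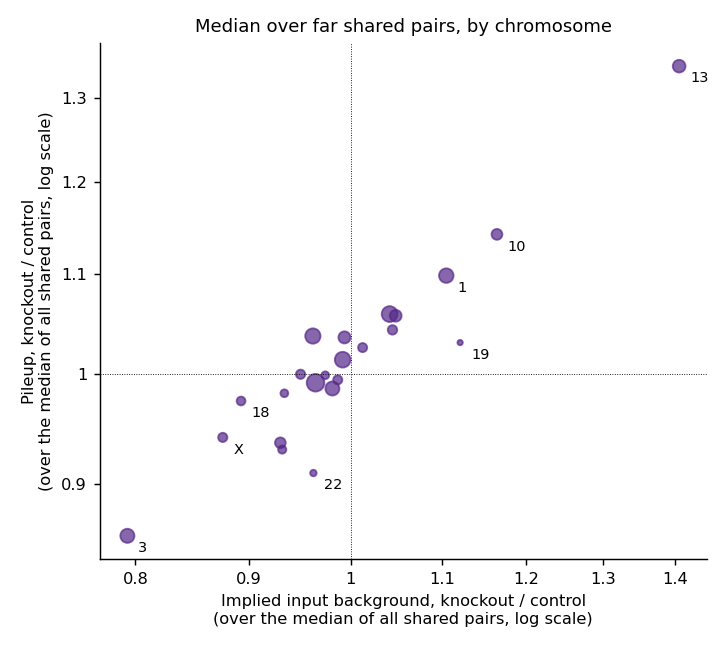
Median relative pileup ratio (vertical, log scale) against median relative background ratio (horizontal, log scale) of far shared pairs, knockout over control, 1 point per chromosome with area growing with the number of pairs. Chromosome 13 lies at 1.34 and 1.41 and chromosome 3 at 0.857 and 0.793.

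Gaps between neighbouring coding records held 9231 of these peaks, and the other 22 lay beyond the first or last coding record of a chromosome. Counting only bases more than 50 kb from a coding record, the density was 17.7 far shared peaks per Mb in gaps of 100 to 250 kb, 14.0 in gaps of 250 to 500 kb, 9.90 in gaps of 500 kb to 1 Mb, 6.94 in gaps of 1 to 2 Mb and 3.86 in gaps of 2 Mb or more. Gaps across centromeres were included in these densities. Deserts, taken as gaps of at least 1 Mb, numbered 320, of which 264 held a far shared peak. Together they held 3261 far shared peaks, 35.2% (95% exact interval 34.3 to 36.2). Their median width ratio was 1.12 and their median relative pileup ratio 1.03.

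Some deserts were dense in shared peaks. A few of these border a transcription factor gene, which was not compared with deserts at large. The gap between STIM2, an endoplasmic reticulum calcium sensor, and LOC124900844 on chromosome 4 held most, 69 in 3.69 Mb, with low pileups of 8 to 20.5 (median 10.9) in the knockout and 7 to 16.9 (median 8.64) in control. Next came CTNNA2 to SUCLG1 on chromosome 2 with 57, CITED2 to LOC124901415 on chromosome 6 with 53 and ZEB2 to ACVR2A on chromosome 2 with 51. CITED2 is a transcriptional coregulator that binds CBP and p300, and ZEB2 is a repressor known from epithelial-mesenchymal transition. These 4 gaps had relative pileup ratios between 0.942 and 1.11 and width ratios between 1.06 and 1.23. Knockout and control pileups overlapped in all 4.

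Beside KLF6, a zinc finger transcription factor of chromosome 10, the peaks were both dense and higher in the knockout. The gap KLF6 to AKR1E2 held 45 far shared peaks, 47.9 per Mb, with pileups of 11.4 to 47.0 (median 27.2) in the knockout and 9.74 to 24.5 (median 14.8) in control. Its relative pileup ratio was 1.42, with 16 of 45 pairs at 1.5 or more and none at 1/1.5 or less, and its relative background ratio was 1.54. On the other side, the gap LOC124902565 to KLF6 held 17 pairs with a median pileup of 29.98 in the knockout and 16.2 in control, a relative ratio of 1.57 and a background ratio of 1.82. The background moved as far as the pileup there, and its part was not tested. SLITRK5 to GPC5 on chromosome 13, between a neuronal membrane protein and a glypican, held 41 pairs with a relative ratio of 1.36 and a background ratio of 1.48.

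Other deserts differed in width or had a relative pileup ratio below 1. RASGRP1 to LOC124903470 on chromosome 15, beside an activator of RAS, held 29 pairs with median widths of 3167 bases in the knockout and 1507 bases in control. The knockout peak was at least 1.5 times as wide in 17 of the 29 and at most 1/1.5 as wide in none (26.6% and 18.2% of all shared pairs). In the 5 pairs of that gap with −log10 q of at least 5 in both lists, the median width ratio was 0.949, in the 3 with fold of at least 4 it was 6.41, and in the 14 with 50% reciprocal overlap it was 1.22. LOC105372073 to PIK3C3 on chromosome 18, which ends at the class III phosphoinositide 3-kinase gene, held 40 pairs with a median pileup of 13.8 in the knockout and 15.7 in control, a relative pileup ratio of 0.801 and a background ratio of 0.799. More than 50 kb from coding records, that gap held 44 peaks in the knockout list and 111 in the control list. KLF4 to ACTL7B on chromosome 9, beside another KLF factor, held 36 pairs with a median pileup of 17.7 in the knockout and 15.2 in control, a relative pileup ratio of 0.952 and a width ratio of 0.962. LOC124901498 to C6orf118 on chromosome 6 held 47 pairs with a median pileup of 10.99 in the knockout and 10.9 in control, a relative pileup ratio of 0.856 and a width ratio of 0.908. CRYBA4 to MN1 on chromosome 22 held 35 pairs with a median pileup of 17.9 in the knockout and 16.9 in control, a relative pileup ratio of 0.911 and a width ratio of 1.04. In the last 3 gaps the median pileup itself was not lower in the knockout.

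**Figure D3:**
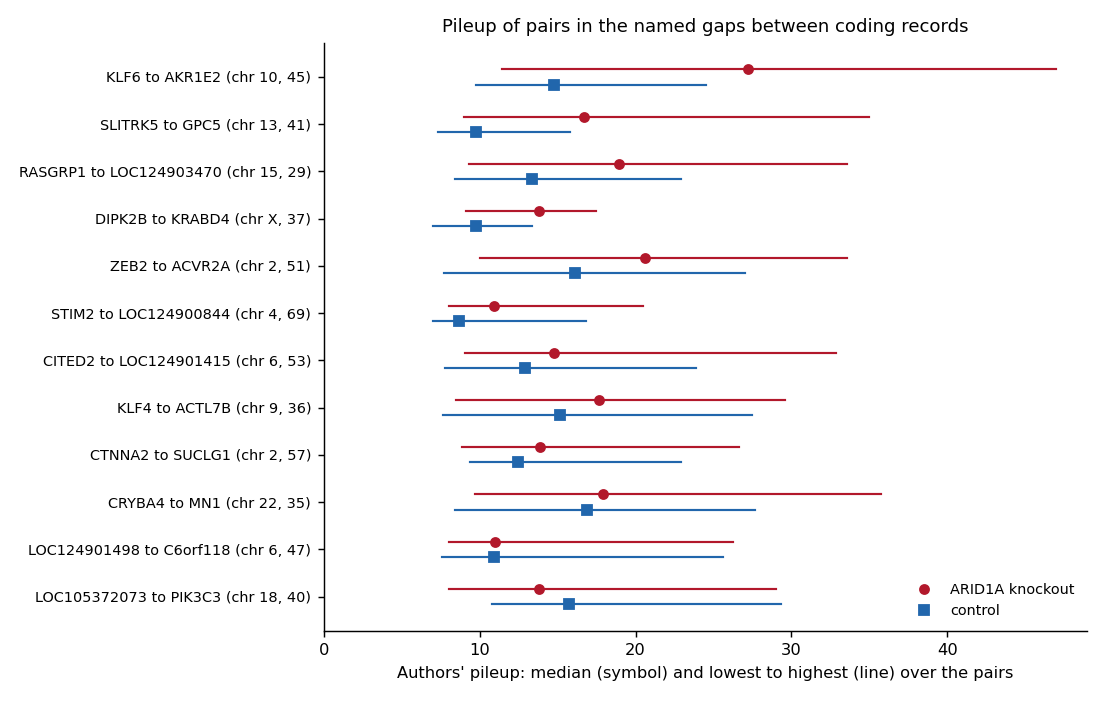
Pileup of far shared pairs in the 12 named gaps between coding records, with the ARID1A knockout (red circles) above control (blue squares) and lines from the lowest to the highest pair, chromosome and number of pairs in parentheses. KLF6 to AKR1E2 has medians of 27.2 in the knockout and 14.8 in control, while LOC105372073 to PIK3C3 has 13.8 in the knockout and 15.7 in control.

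Genes often flanked by deserts were followed as a list of 36 transcription factor and morphogen genes, chosen with earlier results of these data known. Far shared peaks lay in a gap beside 31 of the 36, 464 peaks in 41 gaps. Of all 2884 gaps, 1630 held a far shared peak, and the share of all coding genes beside such a gap was not computed. Of the 464 peaks, 84 (18.1%) had a relative pileup ratio of 1.5 or more and 31 (6.68%) of 1/1.5 or less. All shared pairs had 8.38% and 7.95%. The list's median relative pileup ratio was 1.11 and its median relative background ratio 1.07. Its median width ratio, 1.09, was that of far shared peaks in all. The gaps on either side of KLF6 supplied 16 and 10 of the 84. Beyond TBX3, a T-box factor of limb and mammary development, 24 pairs towards MED13L had a median pileup of 24.2 in the knockout and 13.3 in control. Their relative ratio was 1.48 with a background ratio of 1.26, 12 pairs reached 1.5 and none was at 1/1.5 or less. In 17 pairs the knockout peak was at least 1.5 times as wide. The gap CDKAL1 to SOX4, an SRY-box factor, had 7 pairs at 1.53 (background 1.51), DACH1 to MZT1 9 pairs at 1.67 (background 1.62) and TFAP2C to BMP7, between AP-2γ and a bone morphogenetic protein, 22 pairs at 1.27 (background 1.12).

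Relative pileup ratios beside other listed genes lay on both sides of 1. SOX2 to ATP11B on chromosome 3 had 11 pairs with a median pileup of 10.7 in the knockout and 15.3 in control, a relative ratio of 0.630 and a background ratio of 0.503, and 8 of the 11 were at 1/1.5 or less. LMO4 to PKN2 had 7 pairs at 0.681 (background 0.584). KCNJ2 to SOX9, the desert of known long-range enhancers of SOX9, had 30 pairs at 1.16, with 21.7 in the knockout and 14.2 in control, while SOX9 to SLC39A11 had 19 at 0.903. MYC to GSDMC had 36 pairs at 0.976, and ARRDC3 to NR2F1, beside a nuclear receptor gene, 26 at 1.08. Listed genes without a far shared peak in a neighbouring gap included TWIST1, TBX5, PAX9 and ZNF503.

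LncRNA records held 2966 far shared peaks by their midpoint, 32.1% (95% exact interval 31.1 to 33.0), against 12.3% of other shared peaks, which mostly lie in or beside coding genes. Among far peaks of 1 list only, 29.4% of knockout peaks and 27.7% of control peaks lay inside one. LncRNA records covered 22.9% of the bases more than 50 kb from a coding record, and far shared peaks numbered 11.9 per Mb inside them and 7.48 per Mb outside. Inside them the median pileup was 17.8 in the knockout and 14.3 in control, and outside 16.8 in the knockout and 13.7 in control. The median relative pileup ratio was 1.02 both inside and outside, and the width ratio 1.11 inside and 1.08 outside. Pseudogene records held 1.46% of far shared peaks.

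Single lncRNA genes held up to 30 far shared peaks. MIR3681HG on chromosome 2, the host gene of miR-3681, held 30, with pileups of 10.5 to 39.6 (median 26.5) in the knockout and 9.46 to 31.1 (median 18.2) in control. Its relative pileup ratio was 1.08 and its width ratio 1.48. In 15 of the 30 pairs the knockout peak was at least 1.5 times as wide, and in none at most 1/1.5 as wide. Over all shared pairs the shares were 26.6% and 18.2%. The 30 pairs rest on 25 knockout peaks. LOC105370777 on chromosome 15, in the desert beyond RASGRP1, held 25 with a width ratio of 1.99. Its knockout peak chr15:39123380-39142047, 18668 bases wide with a pileup of 33.6, spanned 3 control peaks. CASC15, a lncRNA of a neuroblastoma susceptibility locus on chromosome 6, held 23 with pileups of 13.0 to 34.9 (median 17.8) in the knockout and 7.55 to 17.2 (median 11.7) in control. Its relative ratio was 1.32 and its background ratio 1.296. DLEU1, in the chromosome 13 region often deleted in chronic lymphocytic leukaemia, held 21 at 1.401 (background 1.53). LOC105376360, beside KLF6, held 17 at 1.57 (background 1.82), which are the pairs given above for the gap LOC124902565 to KLF6. LOC105369844 on chromosome 12 held 15 at 0.969. TARID, an antisense RNA that promotes demethylation of the TCF21 promoter, held 13 at 1.02.

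Of 45 lncRNA genes studied in carcinomas, 12 held a far shared peak inside or within 1000 bases. Of all 17904 lncRNA records, 1644 did. Neither count sets apart records close to coding genes. DLEU2, the host of miR-15a and miR-16-1, held 4 with a median pileup of 18.3 in the knockout and 10.4 in control, a relative ratio of 1.54 and a background ratio of 1.69. The single pair in MIR100HG, the host of miR-100 and miR-125b-1, had a pileup of 34.8 in the knockout and 19.4 in control, a relative ratio of 1.51 with a background ratio of 1.16, while its width was 2347 bases in the knockout and 3461 bases in control. LINC-PINT, a p53-induced RNA, held 5 at 1.16, LUCAT1 2 at 1.12, LINC00673 12 at 1.02, CASC8 5 at 0.953 and PVT1, the neighbour of MYC, 3 at 0.890. CYTOR, a regulator of the cytoskeleton, held 5 covering 13112 bases in the knockout and 22091 bases in control, with a median pileup of 13.6 in the knockout and 10.01 in control. MIR4435-2HG held 6 at 0.968. CYTOR and MIR4435-2HG are near-copies of each other, so how their reads were divided is uncertain.

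MicroRNA hairpins overlapped far shared peaks in 16 cases, and 12 of these hairpins also lay in the paired knockout peak. MIR30C2 was one of the 12: the knockout peak there was 1852 bases with a pileup of 19.3, against 1324 bases and 13.1 in control. Its relative pileup ratio was 1.25 and its background ratio 1.17. Both peaks were weak, with −log10 q of 2.37 in the knockout and 1.38 in control. The medians over far shared peaks were 4.33 in the knockout and 3.48 in control. MIR6076 on chromosome 14 had a knockout peak of 11591 bases with a pileup of 44.9, against 2202 bases and 16.7 in control. The same knockout peak also spanned a second control peak, of 8121 bases with a pileup of 35.7 and a relative ratio of 1.06. The knockout pileup is that of the whole wide peak and not of the part at the microRNA. MIR4276 on chromosome 4 had pileups of 19.2 in the knockout and 10.3 in control, a relative ratio of 1.57.

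The hairpins of MIR221 and MIR222, the pair that shares the seed shown above, were among the 4 that the paired knockout peak did not include. The control peak chrX:45744988-45753196, 8209 bases with a pileup of 10.9 and a −log10 q of 3.07, contained both. The knockout peak chrX:45747414-45764515, 17102 bases with a pileup of 15.7, lay wholly within the record of their host gene MIR222HG. It began 0.399 kb above the lower coordinate of MIR222, whose hairpin ends 0.109 kb above that coordinate. The nearest knockout peak on the other side ended 4.03 kb below that coordinate, so no knockout peak covered either hairpin. The surrounding desert, DIPK2B to KRABD4, held 37 far shared peaks with median widths of 2858 bases in the knockout and 1666 bases in control, and pileups of 9.11 to 17.5 (median 13.8) in the knockout and 7 to 13.4 (median 9.75) in control. The knockout peak was at least 1.5 times as wide in 20 of the 37 and at most 1/1.5 as wide in 3. Over all shared pairs the shares were 26.6% and 18.2%. No pair of this desert remained with −log10 q of at least 5, or with fold of at least 4, in both lists. The 37 pairs rest on 27 knockout peaks, and their median width ratio of 1.95 was 1.11 in the 20 that were 1-to-1 and 1.11 in the 17 with 50% reciprocal overlap. A single knockout peak of 43871 bases, chrX:45772402-45816272, was the pair of several control peaks of 3562 to 7526 bases, and it also covered a control peak of 15613 bases that the length limit left out. The relative pileup ratio of the desert was 1.17 and its background ratio 0.959.

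**Figure D4:**
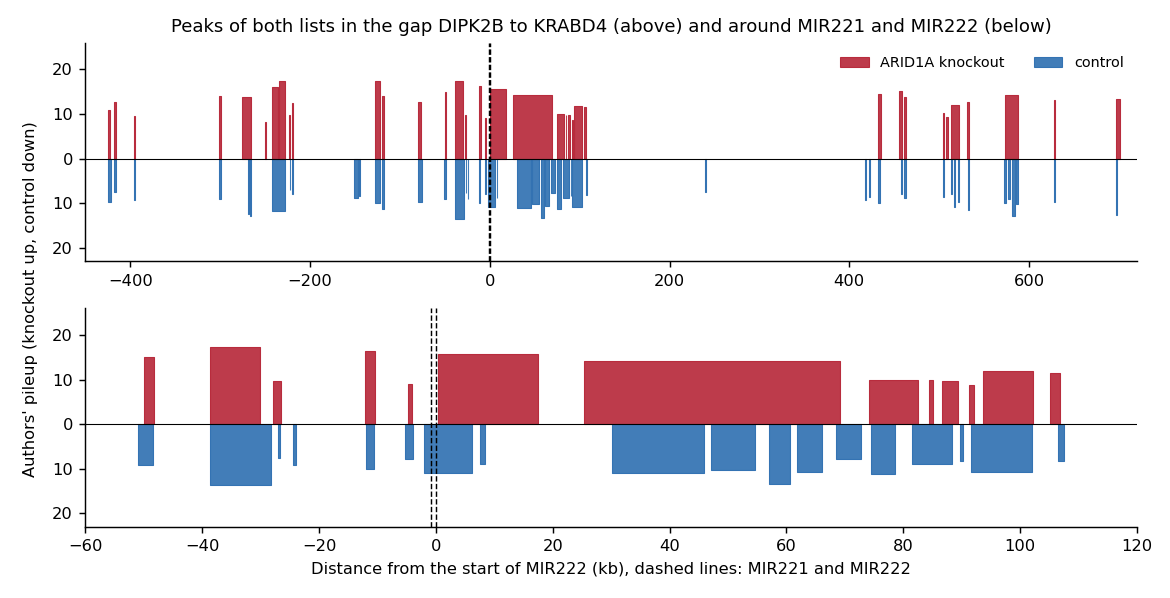
Peaks in the desert DIPK2B to KRABD4 (upper) and close to MIR221 and MIR222 (lower), by distance from MIR222 in kb. Bar height is the authors' pileup, with ARID1A knockout drawn upward and control downward, and the knockout peak of 17102 bases starts just beyond the dashed lines that mark the hairpins while the control peak of 8209 bases spans them.

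Starts of lncRNA genes lay in 264 of the 9253 far shared peaks (2.85%), 291 start sites of 270 genes, and 253 of the sites also lay in the paired knockout peak. The AP-1 letters TGAGTCA or TGACTCA, searched on both strands, occurred in the 300 bases around 62 of the 291, 21.3% (95% exact interval 16.7 to 26.5). They occurred in 5.65% (4.91 to 6.46) of the 3558 far lncRNA starts in no peak and in 4.93% of all 34789 starts of the table. They were also frequent at starts in other shared peaks, 15.5% (13.4 to 17.8) of 1079, and at far starts in a peak of 1 list, 15.3% (8.83 to 24.0) of 98, whose intervals overlap that of the far shared peaks. The median GC content was 46.3% at far shared starts and 43.3% at far starts in no peak. Other letters showed smaller gaps, each counted on its own on both strands. The TEAD letters GGAATG or CATTCC occurred in 15.1% of far shared starts, 17.5% of far starts in no peak and 14.1% of all starts. The RUNX letters TGTGGT or ACCACA occurred in 18.6% of far shared starts, 18.6% of far starts in no peak and 13.1% of all starts. The E-box letters CACGTG occurred in 4.81% of far shared starts, 3.43% of far starts in no peak and 7.24% of all starts. A match gives letters only and not binding.

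**Figure D5:**
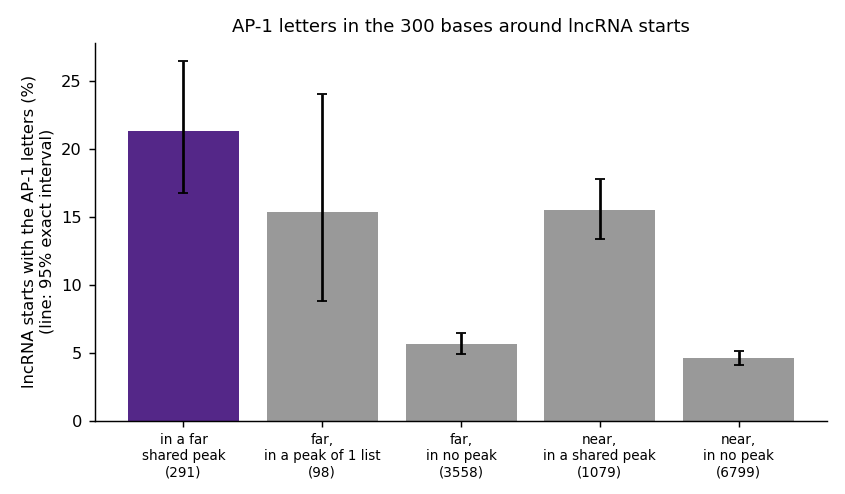
Percent of lncRNA starts with TGAGTCA or TGACTCA in the 300 bases around them, by where the start lies, with 95% exact intervals and the number of starts in parentheses. Far means more than 50 kb from a coding record, and far shared peaks reach 21.3% against 5.65% for far starts in no peak.

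Pileup ratios were close between far shared peaks with and without the AP-1 letters. The 61 far shared peaks with such a start had a median pileup of 22.4 in the knockout and 17.9 in control, a relative ratio of 1.03, with 6 at 1.5 or more and 2 at 1/1.5 or less. The 203 with a lncRNA start but without the letters had 19.7 in the knockout and 16.4 in control, a relative ratio of 1.02. The median width ratio was 1.11 with the letters and 0.984 without. Of the promoters printed above, the peak at LINC00460 had a pileup of 46.3 and a width of 8418 bases in the knockout, against 31.3 and 7595 bases in control. The peak at TGILR had 44.3 and 4281 bases in the knockout, against 27.0 and 4349 bases in control, a relative ratio of 1.38 with a background ratio of 1.79. The peak at LOC124903939 had 28.0 and 1087 bases in the knockout, against 30.5 and 1837 bases in control. All 3 starts lay in the knockout peak as well.

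The strongest far shared peaks stayed within 1.5-fold between genotypes in relative pileup. So did 7588 of all 9253 far shared pairs and 48505 of all 57967 shared pairs. The 10 with the highest control −log10 q, all at 24.3 or more, had relative pileup ratios of 0.667 to 1.14 and width ratios of 0.709 to 1.07. The top one, chr8:124195411-124201796 near FER1L6, was 6030 bases with a pileup of 63.0 in the knockout and 6386 bases with 60.04 in control. A peak 92511 bases from CEBPB, a bZIP transcription factor, had a pileup of 63.0 in the knockout and 55.4 in control, and 1 beyond DLX2, a homeobox gene, 51.4 in the knockout and 46.5 in control. Another near TRIB1, a pseudokinase gene, had 64.7 in the knockout and 47.5 in control, and was alone among the 10 in a relative ratio above 1. The peak near FGF18, a fibroblast growth factor gene, gave the lowest ratio, with 34.4 in the knockout and 43.4 in control. These pairs were chosen as strong in control, so the control value is high by choice.

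Among the 2368 pairs with −log10 q of at least 5 in both lists, the 10 highest relative pileup ratios were 1.89 to 2.17, with background ratios of 1.36 to 1.96. The highest, chr6:170223058-170225904 near the Notch ligand gene DLL1, had a pileup of 50.3 and a width of 6425 bases in the knockout, against 19.6 and 2847 bases in control, with a background ratio of 1.55. A peak near CEBPB, chr20:50243185-50248980, had 50.3 in the knockout and 20.4 in control, and the knockout peak of 11406 bases spanned 2 control peaks. One near CD83, a cell surface protein gene of chromosome 6, had 50.9 in the knockout and 22.3 in control. The 10 lowest ratios were 0.478 to 0.572, with background ratios of 0.470 to 0.840, and 5 of the 10 lay on chromosome 3. The lowest, chr3:72591377-72592734 near SHQ1, had 15.9 in the knockout and 28.0 in control. A pair of peaks near COL8A1, a collagen gene, had 21.1 in the knockout and 31.8 in control at 1, and 18.4 in the knockout and 27.3 in control at the other. One near LRFN2 on chromosome 6 had 21.95 in the knockout and 37.1 in control. These extremes were picked by their ratio and are given as values alone.

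Within the same 2368 pairs, the largest width ratios were runs of control peaks under 1 knockout peak. At LINC02015 on chromosome 3, between TBL1XR1 and KCNMB2, a single knockout peak of 27702 bases, chr3:177809607-177837308, spanned 6 control peaks, among them 1 of 906 bases and 1 of 1748 bases. Its pileup was 22.6, against 19.4 and 25.9 in those 2 control peaks. Beyond DUSP4, a MAP kinase phosphatase gene, a knockout peak of 22920 bases spanned 4 control peaks, 1 of them 2046 bases. The opposite case lay near ADGRF1, an adhesion receptor gene, where a control peak of 8054 bases overlapped 2 knockout peaks, the larger overlap being with a peak of 1552 bases. Pileups there were 17.9 in the knockout and 16.6 in control.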

How the data were processed

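The submitters' processing notes name hg38, MACS2 2.2.6 and Bowtie2 2.3.5.1. The sources used here do not give settings, duplicate handling or how replicates entered each list, so each list was taken as a pool. The authors deposited for each peak its position, its pileup (a signal of stacked fragments), its fold (a ratio to input) and a −log10 q value, per the file headers. Fold and −log10 q are the authors' own values and only ranked or filtered peaks. The members, lists and rules were chosen with earlier results of these data known. Intervals are 95% exact (Clopper-Pearson) and cover counting error over peaks only, which are not independent.

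Distances run from the peak midpoint to 19821 protein-coding records of the RefSeq GRCh38.p14 table, after 153 records whose positions belong to alternate or unplaced sequences were left out. With them the rule gave 9246 peaks. The table gives no exons, so none are named. The background behind a peak was taken as (pileup + 1) / fold − 1, assuming a pseudocount of 1. A gap is the space between neighbouring coding records, counted from 100000 bases upward. Named items were the 10 strongest peaks, the 10 highest and 10 lowest pileup ratios, the 5 highest and 5 lowest width ratios, the 10 gaps with most peaks and the 5 densest, the 10 lncRNA records with most, and list entries holding a peak; other gaps beside listed genes come from the list. Some of these items are not reported here. Python 3.11.15 with pandas 2.3.3 and SciPy 1.17.1 was used, and overlap, pairing and distances were tested on simulated data. No p-value was computed.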

Additional observations from a re-analysis of the deposited data

How the results depend on the processing

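No paired analysis was possible because each genotype had 1 list that carries no replicate. The number of far shared peaks was 2371 when both lists were limited to −log10 q of at least 5 before pairing (2368 when the pairs already made were limited), 1098 with fold of at least 4, and 1740 when any record, coding or not, had to be 50 kb away. It stayed within 1.5 times of 9253 under the other settings tried. The share of pairs at least 1.5 times as wide in the knockout (28.5%) was 17.0% and 14.6% under those q and fold limits, 12.004% with 50% reciprocal overlap, 25.8% with the same merging distance, 23.2% in 1-to-1 pairs (17.9% of all 1-to-1 shared pairs), 26.8% after division by the median, 27.1% with both peaks under 10000 bases and 24.5% when the rule was applied to the knockout list, the last 2 chosen after seeing the data. The share of wider far pairs was 30.4% beyond 100 kb and 27.2% beyond 20 kb, where all shared pairs stayed at 26.6%. The share at relative pileup 1.5 or more was 10.2%, against 8.38% of all shared pairs. It was 5.103% and 4.92% under the q and fold limits (3.74% and 3.96% of all). It was 8.76% with reciprocal overlap (6.75% of all), 11.2% beyond 100 kb (8.38%) and 23.4% without division by the median (20.2%). At 2-fold the shares were 18.9% in width and 2.02% in pileup (18.2% and 1.4% of all). The share beyond 250 kb (30.8%) was 20.4%, 19.5%, 28.7%, 46.1% and 21.1%, that in deserts (35.2%) 24.0%, 23.3%, 33.2%, 48.3% and 25.6%, under q, fold, reciprocal overlap, 100 kb and 20 kb. The share at lncRNA records within 1000 bases (34.2%) was 37.3% and 35.7% under the q and fold limits and 32.4% beyond 20 kb. More pairs were higher than lower in the knockout, in width and in pileup, under every setting tried. The AP-1 share was 22.6% to 23.4% under 3 settings chosen after seeing the data. Of 162 values recomputed for the 12 named gaps, 147 stayed within the quartiles of their pairs, 14 moved outside them and 1 was counted as turned. Turning was counted only where the reported median was at least 1.5 or at most 1/1.5. The 1 was the width ratio of RASGRP1 to LOC124903470, 0.949 under the q limit (6.41 under the fold limit and 1.22 with reciprocal overlap). Other values crossed 1 without being counted. The width ratio of CITED2 to LOC124901415 was 1.06 as reported and 0.957 in 1-to-1 pairs. The relative pileup ratio of LOC124901498 to C6orf118 was 0.856 as reported and 1.03 under the q limit. The causes were not tested. With 1 list per genotype and unknown depth, no difference could be set against replicate spread.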

Other observations

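Some gaps held many far peaks in 1 list and few in the other, and so few shared ones. They were picked after their values were seen, among 167 gaps with at least 40 far peaks in both lists together. VRK1 to BCL11B on chromosome 14, beside a zinc finger factor of T cells, held 41 knockout peaks over 99196 bases and 8 control peaks over 11081 bases, with a relative background ratio of 1.45 over its 7 pairs. MAT2B to TENM2 on chromosome 5 held 52 knockout peaks over 84247 bases and 14 control peaks over 11900 bases, and its 11 pairs had median pileups of 18.5 in the knockout and 10.3 in control. In the other direction, MMS22L to POU3F2 on chromosome 6, beside a neural POU factor gene, held 9 knockout peaks over 9424 bases and 47 control peaks over 65619 bases. ADGRL2 to LOC107985043 on chromosome 1 held 13 knockout peaks and 62 control peaks, and its 12 pairs had median pileups of 11.2 in the knockout and 15.6 in control.

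Of the 320 deserts, 56 held no far shared peak. Gaps across centromeres were included and not marked, and whether reads could be placed in each gap was not tested. An empty gap is therefore not shown to lack the mark. The longest, LOC124903767 to SHCBP1 on chromosome 16, spans 12.2 Mb and held 1 knockout peak and no control peak. LSAMP to IGSF11 on chromosome 3 holds 17 lncRNA records in 2.46 Mb, and had 2 knockout peaks over 1143 bases and 6 control peaks over 7128 bases.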
